A study of Mus musculus with 8 samples.

Results

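The interferon response genes described here are 34 mouse genes that interferons induce in many cell types. They were chosen by symbol and not by their measured values, and all 34 were found among the 35199 genes of the count table. Interferons are secreted proteins that bind receptor chains on the cell surface. The receptors activate Janus kinases and STAT factors. After type I and III interferon, a complex that holds Stat2 and Irf9 then binds the interferon-stimulated response element (ISRE) in target promoters, whereas interferon gamma acts chiefly through the gamma-activated sequence (GAS). The targets include sensors of foreign nucleic acid, transcription factors that amplify the response, enzymes that degrade or mark RNA and proteins, and subunits of the immunoproteasome. Epithelial cells of the intestine respond to type I and type III interferons and keep many of these genes on at a low level without infection.

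Messenger RNA was sequenced from tuft cells, the rare chemosensory cells of the intestinal epithelium, to ask whether blockade of muscarinic acetylcholine receptors changes their expression program. All 8 mice carried the Dclk1-DTR-ZSgreen transgene, a bacterial artificial chromosome in which Dclk1 control regions drive the diphtheria toxin receptor and the green reporter ZSgreen, and mice were 8 to 10 weeks old when pumps were implanted. The scopolamine group (4 mice) was given this nonselective muscarinic antagonist for 7 days, at a daily dose of 0.5 mg/kg from an implanted osmotic pump, and the sham group (4 mice) was given sodium chloride for as long. Each library, numbered 1 to 4 within its group without pairing, came from 1 mouse and from 3000 (scopolamine 1 and sham 1) or 4000 live epithelial ZSgreen-positive cells. Sham 1 and sham 3 were made from a lower RNA input with more amplification cycles than the other 6 libraries.

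Estimated counts summed to 20327680, 20244608, 14343362 and 20857433 in scopolamine 1 to 4 and to 25769940, 40426059, 41428916 and 35391538 in sham 1 to 4. The 4 sham libraries were all deeper than the 4 of scopolamine, and a part of depth in the group differences cannot be told apart from treatment. The tuft cell markers were present in every library. The summed level of 23 markers was 31810, 21300, 34980 and 20360 CPM (counts scaled for library size with TMM factors) with scopolamine and 29980, 32210, 32320 and 29290 CPM in sham. Cd24a was the most abundant of the 23 and so weighed most in the sum. By this sum scopolamine 2 and 4 were lowest, below every sham library. A level of 3 counts, used as the detection floor, corresponds to 0.073 (sham 2) to 0.208 CPM (scopolamine 3), which covers counting error only.

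The interferon response genes were expressed in sorted tuft cells of both groups, mostly at a moderate level. Of the 34 genes, 29 had over 3 counts in every library and 21 exceeded 10 CPM in every library. Per kilobase of exon, 29 lay above the median of the 21647 genes with a level and 7 lay above the 95th percentile. The highest mean levels over the 8 libraries were those of Ifi27 (163 ± 28.4 CPM per kb, SD over 8 libraries), Oas1a (142 ± 36.2), Irf7 (91.4 ± 28.4), Ifi35 (80.8 ± 14.6), Isg15 (70.9 ± 22.5) and Bst2 (62.6 ± 27.5). Ifi27 and Oas1a were close to each other relative to their spread, as were Irf7 and Ifi35. The lowest levels were those of Mx2 (0.159 CPM per kb) and Gbp2 (0.174), then Ifi44 (0.324), Ifit2 (0.346), Ifit3 (0.586) and Mx1 (0.937). Mx2 and Gbp2 did not pass the expression filter, so 32 genes were tested.

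**Figure D1:**
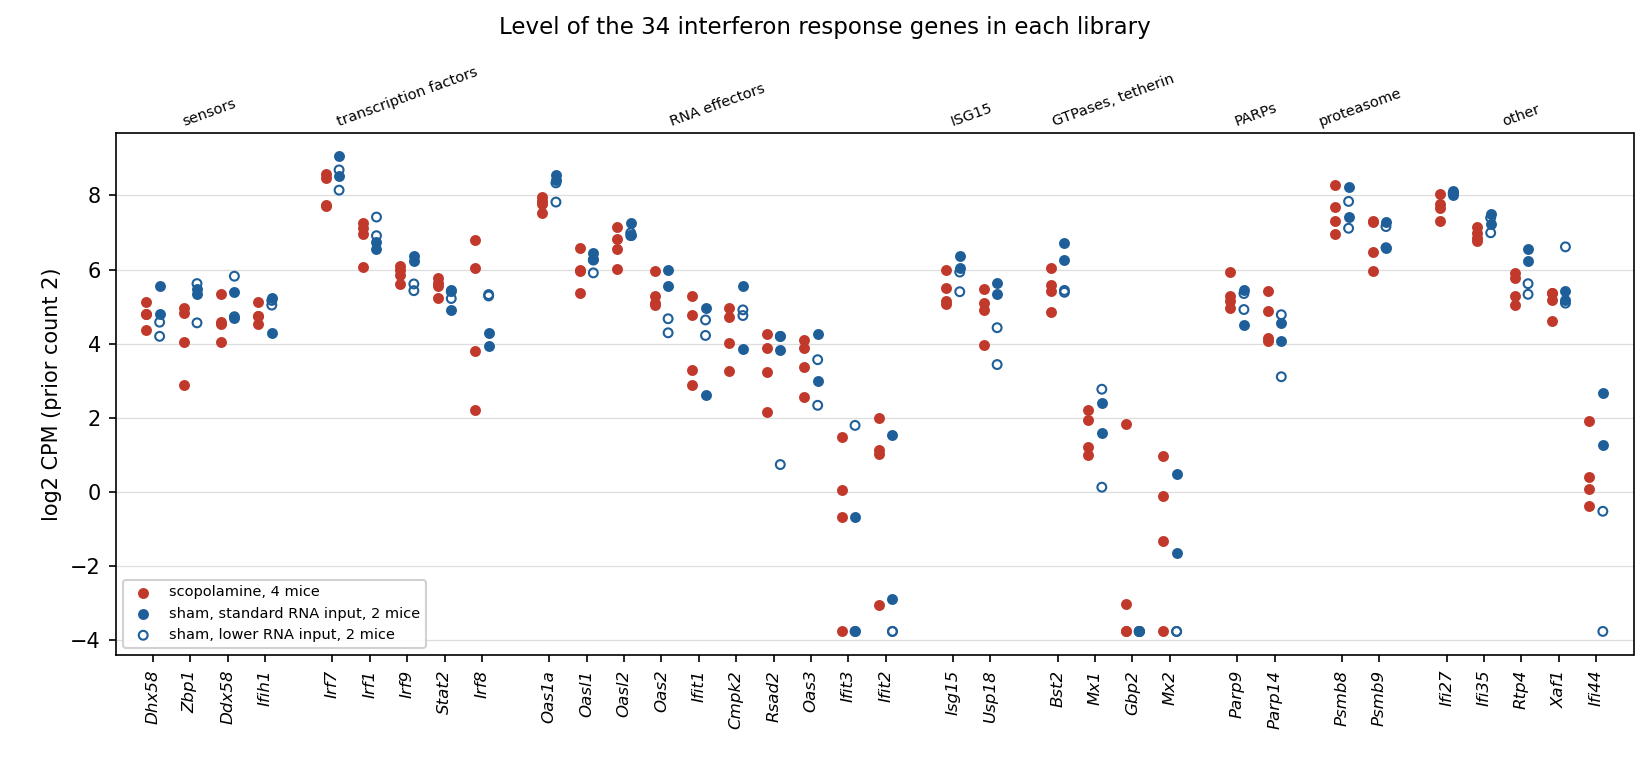
Level of each of the 34 genes in each library as log2 CPM (prior count 2), grouped by role, with scopolamine in red and sham in blue and open circles for the sham libraries of lower RNA input. The groups overlap for all 32 tested genes, and Ifit2, Ifit3, Ifi44, Mx2 and Gbp2 each have at least 1 library without a count, drawn at -3.76.

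None of the 32 tested genes differed between the groups past the threshold. In edgeR's quasi-likelihood test, 0 of 32 had a Benjamini-Hochberg adjusted p under 0.1, against 0 of all 12849 genes tested (0%), and the smallest adjusted p among the 32 was 0.812. DESeq2 also called 0 of these genes, although it called 190 of 14462 genes with an adjusted p (1.31%), and limma-voom called 0. At an unadjusted p under 0.05, edgeR picked 0 genes as higher, against 3.33% of all genes, and 1 (Oas1a) as lower, against 2.66%. DESeq2 picked 2 at that level (Oas1a and Zbp1) and limma-voom 3 (Oas1a, Zbp1 and Ifi27), all lower. Over all genes DESeq2 had 915 higher and 616 lower at that level of 21805 fitted, and limma-voom 673 higher and 328 lower of 12849. No gene of the 32 had groups that did not overlap, whereas 1.7% of all genes lay apart on the higher side and 2.23% on the lower side. These shares are small numbers of genes out of 32, and no difference from the background was tested.

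The fold changes lay on both sides of 0, with 11 positive and 21 negative. Their median was -0.13 on the log2 scale, beside -0.011 over all genes tested, of which 50.9% were negative. For 29 of the 32 genes the log2 fold change was smaller than 0.6 in size. The exceptions were Ifit2 (1.47, standard error 1.74), Zbp1 (-0.90, standard error 0.42) and Irf8 (0.80, standard error 0.77). The spread between mice of a group, as the median over genes of the pooled SD of log2 CPM, was 0.54 for these genes and 0.563 for all genes tested. Since cells were measured in bulk, fewer cells that express a gene and less RNA per cell cannot be told apart.

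**Figure D2:**
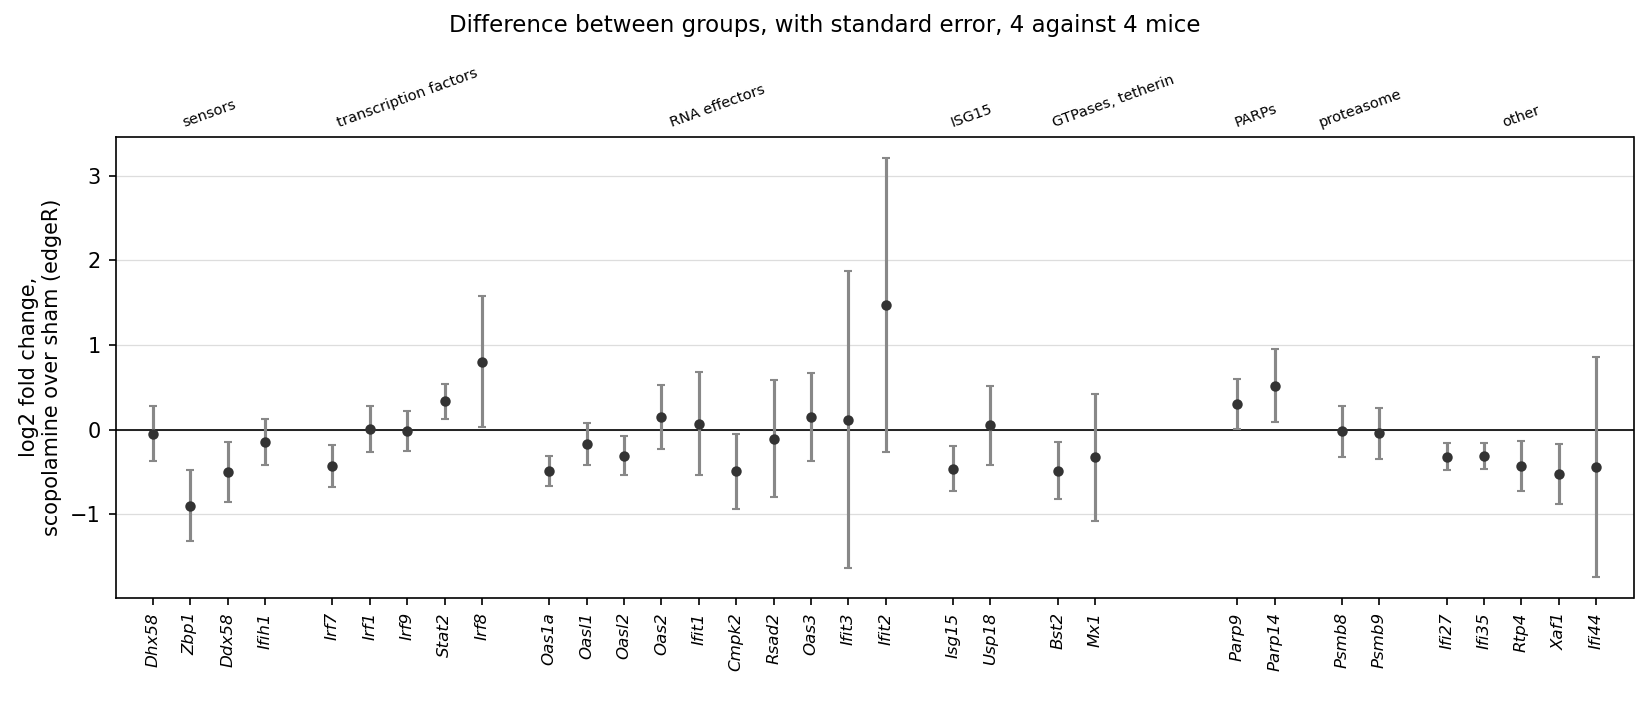
Log2 fold change of scopolamine over sham for the 32 tested genes from edgeR, with bars of 1 standard error, grouped by role. In standard errors Oas1a, at -0.49, lies furthest below 0 and Stat2, at 0.33, furthest above it, and the bars of Ifit2, Ifit3 and Ifi44 are the widest.

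All 4 sensors of nucleic acid had negative fold changes, and none passed the threshold. Zbp1, a receptor for Z-form nucleic acid that can start cell death, was measured at 28.2, 7.36, 16.5 and 30.8 CPM in scopolamine 1 to 4 and at 23.5, 40.6, 49.2 and 44.6 CPM in sham 1 to 4. Scopolamine 2 and 3 lay below all sham libraries, whereas scopolamine 1 and 4 lay between sham 1 and the other sham libraries, so the groups overlapped. Its log2 fold change was -0.90 (standard error 0.42, leave-one-out range -1.16 to -0.63, 95% interval -1.83 to 0.036), with an edgeR adjusted p of 0.812 and an exact permutation p of 0.0857 (two-sided). The leave-one-out range, given likewise for the genes below, holds the lowest and highest fold change with 1 library left out, and for Zbp1 the value nearest 0 was that without scopolamine 2. With the letter of the mouse ID as a covariate, Zbp1 was at -0.47. Among the helicases that bind viral RNA, Ifih1 (MDA5) ranged over 19.6 to 37.3 CPM, Ddx58 (RIG-I) over 16.3 to 56.5 CPM and Dhx58 (LGP2) over 18.3 to 47.0 CPM. Their log2 fold changes were -0.15, -0.50 and -0.05, each within 1.5 standard errors of 0. Ddx58 was highest in sham 3 at 56.5 CPM, and Dhx58 was lowest in the same library at 18.3 CPM.

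Irf7, which interferon induces and which drives interferon genes in turn, was the most abundant of the 5 transcription factors per length. It was measured at 356, 216, 383 and 209 CPM with scopolamine and at 283, 532, 413 and 369.9 CPM in sham. Scopolamine 2 and 4 were lower than every sham library, while scopolamine 1 and 3 lay among them. In edgeR its log2 fold change was -0.43 (standard error 0.25, leave-one-out range -0.60 to -0.25, edgeR adjusted p = 0.822), and the exact permutation p was 0.171, two-sided.

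Stat2 and Irf9, which belong to the complex that binds the ISRE, had fold changes short of the threshold. Stat2 was measured at 49.4, 37.3, 46.9 and 54.3 CPM with scopolamine and 37.2, 29.7, 42.3 and 43.3 CPM in sham. Scopolamine 1, 3 and 4 exceeded all sham libraries, and scopolamine 2 was among the sham values. Its log2 fold change of 0.33 (standard error 0.21, leave-one-out range 0.23 to 0.42) had the smallest p of the positive fold changes, with an edgeR unadjusted p of 0.142, an adjusted p of 0.833 and an exact permutation p of 0.114. Irf9 was measured at 68.6, 48.8, 58.2 and 63.8 CPM with scopolamine and 43.1, 81.9, 48.8 and 74.6 CPM in sham. The sham values spread on both sides of the scopolamine values, with sham 1 and 3, the libraries of lower RNA input, at the bottom (sham 3 shared its level with scopolamine 2). For Irf9 the log2 fold change was -0.021 (standard error 0.24, leave-one-out range -0.17 to 0.15, edgeR adjusted p = 0.996, exact permutation p = 0.971), and its sign turned under several settings.

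Irf1, which interferon gamma induces strongly, ranged over 67.2 to 171 CPM (log2 fold change 0.0043, standard error 0.27). Irf8, known mainly from myeloid and B cells, had the largest ratio of highest to lowest library among the genes above 1 CPM in every library. It was measured at 4.56, 65.7, 13.9 and 110.2 CPM with scopolamine and 39.0, 15.3, 40.0 and 19.3 CPM in sham. Scopolamine 2 and 4 were the highest of the 8 libraries and scopolamine 1 and 3 the lowest, so the sham values lay between them. Its log2 fold change was 0.80 (standard error 0.77, leave-one-out range 2.1e-05 to 1.18, edgeR adjusted p = 0.895), and the exact permutation p was 1. Scopolamine 4 alone carried this value, since without it the fold change was 2.1e-05, and limma-voom gave 0.17. The summed level of 17 goblet and Paneth cell markers was also highest in scopolamine 4 and 2 (14370 and 5684 CPM). Scopolamine 1, the lowest library for Irf8, came next in that sum (4489 CPM). The part of these cells in the Irf8 values was not tested.

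The 2'-5'-oligoadenylate synthetases make the second messenger that activates RNase L, and Oasl1 and Oasl2 are related proteins. Oas1a was the only one of the 32 tested genes with an edgeR unadjusted p under 0.05. It was measured at 232, 183, 247 and 218 CPM with scopolamine and at 226, 339, 324 and 374 CPM in sham. Sham 2, 3 and 4 exceeded every scopolamine library, but sham 1 lay among the scopolamine values, so the groups overlapped. Group means and SDs over 4 mice were 219.9 ± 27.5 CPM for scopolamine against 316 ± 63.3 CPM for sham. On the log2 scale the fold change was -0.49 (standard error 0.17, leave-one-out range -0.63 to -0.41, 95% interval -0.87 to -0.11), with an edgeR unadjusted p of 0.0172 and an adjusted p of 0.812. The exact permutation p was 0.0857 (two-sided), where 4 against 4 mice allow 0.0286 at the smallest.

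In 3 of the alternative settings the edgeR unadjusted p of Oas1a lay above 0.05. These were the fit without scopolamine 2 (log2 fold change -0.42), the fit without sham 4 (-0.41) and the fit with the letter of the mouse ID as a covariate (-0.33). Oas1a is also uncertain because 68.7% of its 31-base words, the unit that kallisto assigns, occur in its neighbour Oas1g. Summed over both genes, the level was 345, 263, 362 and 318 CPM with scopolamine and 324, 481, 467 and 529 CPM in sham. The order of the libraries was similar, with sham 1 again among the scopolamine values, and the log2 fold change of the sum was -0.45 (standard error 0.17, edgeR adjusted p = 0.813).

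The other members of the family had smaller ratios to their error. Oas2 ranged over 19.5 to 63.1 CPM (log2 fold change 0.15), Oas3 over 4.98 to 19.2 CPM (0.15), Oasl1 over 41.5 to 95.7 CPM (-0.17) and Oasl2 over 64.4 to 153 CPM (-0.31). Oas2 and Oas3 were highest in sham 2, and both lower-input libraries, sham 1 and 3, held the lowest Oas2 values.

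The IFIT proteins bind foreign RNA and block its translation. Ifit1 was measured at 9.62, 7.36, 27.4 and 38.8 CPM with scopolamine and 24.9, 30.9, 18.6 and 6.10 CPM in sham. Both groups held low and high libraries, with sham 4 lowest and scopolamine 4 highest. Its log2 fold change was 0.071 (standard error 0.61, leave-one-out range -0.42 to 0.36, edgeR adjusted p = 0.996, exact permutation p = 0.971). Ifit2 had 39, 1, 56 and 45 counts with scopolamine and 0, 116, 0 and 2 counts in sham, so 4 of the 8 libraries were at or under the floor. Ifit3 had 54, 21, 8 and 0 counts with scopolamine and 90, 0, 0 and 18 counts in sham. Ifit3 shares 61.8% of its 31-base words with Ifit3b, and the sum of both genes was still absent from sham 2 and at or under 0.557 CPM in scopolamine 4, sham 3 and sham 4. At these counts no difference was detectable for Ifit2 or Ifit3 with all libraries. Without sham 2, which held nearly all sham counts of Ifit2, its edgeR unadjusted p was under 0.05.

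Rsad2 (viperin) and Cmpk2 act on nucleotide pools and viral RNA synthesis. Rsad2 was measured at 9.37, 4.40, 19.0 and 14.8 CPM with scopolamine and 18.3, 14.2, 1.59 and 18.4 CPM in sham. Sham 3 was far below the other 7 libraries, and these overlapped (log2 fold change -0.11, standard error 0.69). Cmpk2 ranged over 9.56 to 47.4 CPM, lowest in scopolamine 3 and highest in sham 2 (log2 fold change -0.50, standard error 0.44).

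Isg15, a ubiquitin-like protein that is joined to other proteins, was measured at 45.3, 33.5, 35.4 and 63.6 CPM with scopolamine and 61.0, 66.1, 42.2 and 81.6 CPM in sham. Scopolamine 4 and sham 3 crossed over, and the remaining scopolamine libraries lay below the remaining sham libraries. For Isg15 the log2 fold change was -0.46 (standard error 0.27, leave-one-out range -0.70 to -0.33, edgeR adjusted p = 0.82, exact permutation p = 0.171). The size was largest without scopolamine 4, and with that library or sham 3 left out the edgeR unadjusted p was under 0.05. Without the 2 sham libraries of lower input the fold change was -0.72 (edgeR unadjusted p = 0.0375), which leaves 2 sham mice. Usp18, which removes Isg15 from proteins and restrains the type I receptor, was measured at 30.2, 15.4, 34.3 and 44.2 CPM with scopolamine and 10.8, 50.1, 21.5 and 40.2 CPM in sham. Its lowest values were those of sham 1, scopolamine 2 and sham 3, and the log2 fold change was 0.051 (standard error 0.46).

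Bst2 (tetherin), which holds budding virus at the cell surface, was measured at 48.2, 29.0, 42.8 and 65.4 CPM with scopolamine and 41.8, 75.8, 43.2 and 106 CPM in sham. Sham 4 was highest and scopolamine 2 lowest, and the lower-input libraries sham 1 and 3 lay at the level of scopolamine 3. Bst2 had a log2 fold change of -0.49 (standard error 0.34, leave-one-out range -0.72 to -0.19, edgeR adjusted p = 0.852, exact permutation p = 0.286). It was nearest 0 without sham 4, and it was -0.10 with the ID letter and -0.92 with RNA input as a covariate. The dynamin-like GTPase Mx1 ranged over 1.02 to 6.75 CPM (log2 fold change -0.33, standard error 0.75). Its relative Mx2, annotated as a polymorphic pseudogene, had 17, 7, 27 and 0 counts with scopolamine and 0, 54, 0 and 8 counts in sham. Gbp2, a guanylate-binding protein induced chiefly by interferon gamma, had 74 counts in scopolamine 4 and at most 1 in any other library, with none in the 4 sham libraries. A gene present in a single mouse gives no comparison of the groups.

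Parp14 and Parp9 are ADP-ribosyltransferases, and both had positive fold changes short of the threshold. Parp14 was measured at 17.6, 16.8, 29.7 and 42.5 CPM with scopolamine and 27.4, 16.8, 8.55 and 23.3 CPM in sham. Scopolamine 3 and 4 were highest and sham 3 was lowest, and the others overlapped. The log2 fold change was 0.52 (standard error 0.43, leave-one-out range 0.19 to 0.74, edgeR adjusted p = 0.88, exact permutation p = 0.343), nearest 0 without scopolamine 4. Parp9, which works in a complex with the ubiquitin ligase Dtx3l, was measured at 38.7, 30.8, 35.6 and 61.5 CPM with scopolamine and 30.2, 43.5, 40.8 and 22.7 CPM in sham. Scopolamine 4 stood highest, and the other 3 scopolamine libraries lay within the sham range. Parp9 had a log2 fold change of 0.31 (standard error 0.30, leave-one-out range 0.053 to 0.44, edgeR adjusted p = 0.895, exact permutation p = 0.429), again nearest 0 without scopolamine 4.

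Psmb8 and Psmb9, subunits of the immunoproteasome, replace constitutive catalytic subunits and shape the peptides shown on MHC class I. Psmb8 was measured at 159, 206, 125 and 312 CPM with scopolamine and 139, 171, 229 and 297 CPM in sham, and Psmb9 at 88.5, 156, 62.3 and 159 CPM and 96.3, 95.8, 143 and 156 CPM. Scopolamine 3 was the lowest library and scopolamine 4 the highest for both genes, with the sham libraries between them. The log2 fold changes were -0.023 (standard error 0.30) and -0.042 (standard error 0.30), far smaller than the spread between mice.

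The remaining 5 induced genes had negative fold changes, all short of the threshold. Ifi27, a small membrane protein, was measured at 262, 202, 217 and 159 CPM with scopolamine and 266, 259.8, 267 and 277 CPM in sham. The 4 sham libraries were nearly equal, and scopolamine 2, 3 and 4 lay below them, while scopolamine 1 lay among them. The log2 fold change was -0.32 (standard error 0.16, leave-one-out range -0.44 to -0.22, 95% interval -0.67 to 0.029, edgeR adjusted p = 0.812), and the exact permutation p was 0.0571. With the ID letter as a covariate Ifi27 was at -0.47, with an edgeR unadjusted p of 0.0277. Ifi35, a leucine zipper protein, was measured at 115, 108, 127 and 141 CPM with scopolamine and 127, 149.8, 168 and 179.6 CPM in sham. Scopolamine 1 and 2 lay below every sham library, scopolamine 3 was level with sham 1, and scopolamine 4 lay between sham 1 and sham 2. Its log2 fold change was -0.31 (standard error 0.16, leave-one-out range -0.41 to -0.26, 95% interval -0.66 to 0.035, edgeR adjusted p = 0.812, exact permutation p = 0.0857), and with the ID letter as a covariate it was -0.15.

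Rtp4, a receptor transporter protein, ranged over 33.1 to 93.9 CPM (log2 fold change -0.43, standard error 0.30). Xaf1, which antagonizes the apoptosis inhibitor XIAP, ranged over 24.4 to 97.8 CPM (log2 fold change -0.53, standard error 0.36), and its maximum in sham 3 stood far above the next value of 43.1 CPM. Ifi44 had 14, 27, 53 and 21 counts with scopolamine and 0, 96, 25 and 205 counts in sham. Sham 4 held the most counts of Ifi44 and sham 1 none, and no difference was detectable (log2 fold change -0.44, standard error 1.30).

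Across the 34 genes, the mean log2 CPM (prior count 2) was 4.54, 4.08, 4.66 and 4.85 in scopolamine 1 to 4 and 4.19, 4.85, 4.28 and 4.64 in sham 1 to 4. Scopolamine 2 was the lowest library, followed by the lower-input libraries sham 1 and sham 3, and scopolamine 4 and sham 2 were the highest. Over the 4 mice of each group, mean and SD were 4.53 ± 0.33 for scopolamine against 4.49 ± 0.31 for sham. The difference of 0.043 was far smaller than either SD. Over the 32 tested genes the difference in mean was -0.039 and the median of their fold changes was -0.13, so its sign over all 34 genes was the opposite of both. The summed level, which follows the abundant genes, was 2064, 1778, 2139 and 2410 CPM with scopolamine and 2036, 2722, 2580 and 2734 CPM in sham, and 6 genes made up 57.1% of it. By this sum sham 2, 3 and 4 were above every scopolamine library, and sham 1 lay with the lower scopolamine libraries.

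**Figure D3:**
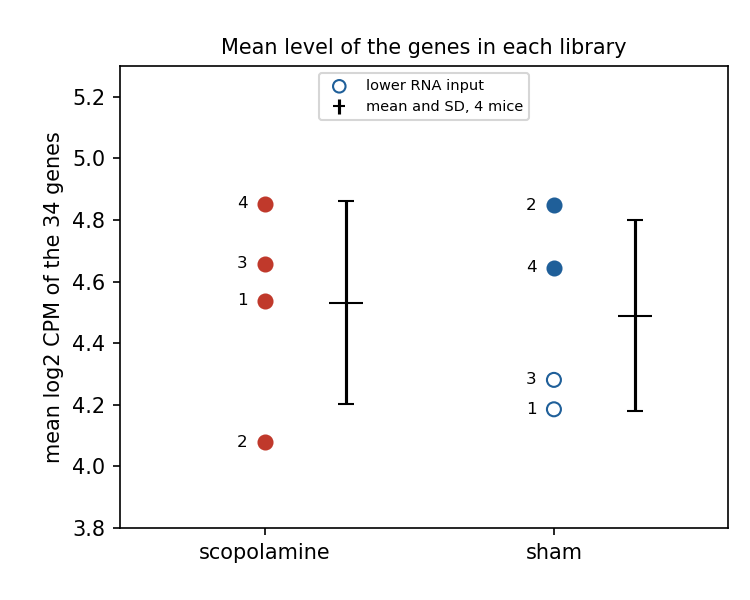
Mean log2 CPM of the 34 genes in each library (points, numbered by replicate) with the mean and SD of each group (bars, 4 mice); open circles mark the sham libraries of lower RNA input. The groups overlap, with scopolamine 2 lowest at 4.08 and scopolamine 4 and sham 2 highest, both at 4.85.

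Within the scopolamine group, scopolamine 2 held the lowest value for 21 of the 32 tested genes and scopolamine 4 the highest for 16. In the sham group, sham 1 held the lowest value for 14 genes and sham 2 the highest for 13. In sham, both lower-input libraries lay below both others for 11 of the 32 genes, against 18.9% of all genes tested, and above both for 2, against 16.1%. Without these 2 libraries the median log2 fold change of the genes was -0.37 and 4 genes (Isg15, Oas1a, Bst2 and Rtp4) had an edgeR unadjusted p under 0.05, all lower and none past the adjusted threshold. Of all 13869 genes in that fit 837 were higher and 360 lower at this p. RNA input was not balanced between the groups, since both lower-input libraries were sham. With RNA input class as a covariate the median log2 fold change was -0.34, with 9 positive and 23 negative. The same 4 genes had an edgeR unadjusted p under 0.05 in that fit, beside 546 higher and 247 lower of all 12849 genes. The part of RNA input in the difference was not tested beyond these values. The first letter of the mouse ID, which the labels do not explain, was M for scopolamine 1 to 3 and sham 1 and N for scopolamine 4 and sham 2 to 4. With this letter as a covariate the median log2 fold change was -0.014, with 16 positive and 16 negative. In that fit Ifi27, at -0.47, was the only one of the 32 genes with an edgeR unadjusted p under 0.05. Of all 12849 genes in it, 421 were higher and 260 lower at this p. For Oas1a, the M mice held 232, 183, 247 and 226 CPM, the last in sham, and the N mice 218, 339, 324 and 374 CPM, the first with scopolamine. Only the N mice separated by treatment, with 1 scopolamine mouse among them.

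Markers of other cell types also differed between the libraries, and the numbers at an unadjusted p under 0.05 stand beside 3.33% higher and 2.66% lower of all genes tested. All 20 enterocyte markers had positive fold changes (median 1.66, 9 with an edgeR unadjusted p under 0.05), with summed levels of 3502, 7570, 6482 and 3957 CPM with scopolamine and 6914, 2692, 2818 and 2764 CPM in sham, with Fabp1 most abundant. Of 17 goblet and Paneth cell markers, 16 were positive (median 1.72, 4 at that p), at 4489, 5684, 2259 and 14370 CPM and 3613, 1137, 3099 and 848 CPM, led by Reg3b. Of 16 tested enteroendocrine markers, 13 were positive (median 1.13, 1 at that p), at 479, 990.3, 472 and 1117 CPM and 279.6, 180.4, 1544 and 308 CPM, led by Sct. Enterocyte markers were thus high in scopolamine 2 and 3 and sham 1, and goblet and Paneth markers in scopolamine 4. Of 23 tuft cell markers, 19 were negative (median -0.15), and 2 (Hpgds and Ly6g6f) had an unadjusted p under 0.05. All 8 crypt stem cell markers were negative (median -0.22, 0 at that p), at 296, 238, 185 and 224 CPM and 328, 279, 293 and 254 CPM, led by Slc12a2.

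Immune cells, which express interferon response genes and interferon gamma, were looked for with 2 lists. The 24 T cell and intraepithelial lymphocyte markers summed to 146, 248, 169 and 71.8 CPM with scopolamine and 298, 64.4, 91.0 and 73.3 CPM in sham, with Ptprc most abundant and 13 tested (11 positive, median 0.56). Cd3e had 109, 165, 14 and 2 counts and 244, 3, 7 and 0 counts, so that sham 1 and scopolamine 1 and 2 held most of it, and sham 4 held none. The 22 macrophage, dendritic cell and B cell markers summed to 29.9, 27.3, 41.7 and 38.9 CPM and 31.9, 37.0, 39.3 and 40.0 CPM, led by Cd79b (7 tested, 4 positive, median 0.087). Lymphocyte markers were thus highest in sham 1 and scopolamine 2. Of 17 tested immediate early and heat shock genes, 16 were positive (median 0.37, 4 with an unadjusted p under 0.05, beside 3.33% of all genes higher), at 1779, 2141, 2541 and 1634 CPM and 1887, 1671, 1387 and 1836 CPM, led by Jund. The part of other cells and of dissociation in the levels of the 34 genes was not tested.

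The ligands and receptors of the pathway were read from separate lists. Interferon genes themselves were almost silent. Of 21 ligands among the counted genes, 16 had no count and none passed the filter. Ifnk had 53 counts in sham 3 and at most 3 elsewhere, and Ifnz had 4 counts in scopolamine 1 and none elsewhere. Ifng had a single count in each of 3 libraries.

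All 6 receptor chains were expressed and tested. Ifngr1, the ligand-binding chain for interferon gamma, was measured at 33.5, 63.5, 29.1 and 36.6 CPM with scopolamine and 28.1, 29.5, 20.4 and 22.1 CPM in sham. Scopolamine 1, 2 and 4 exceeded all sham libraries, and scopolamine 3 lay just below sham 2. Its log2 fold change was 0.73 (standard error 0.29, leave-one-out range 0.42 to 0.85, edgeR unadjusted p = 0.0304, adjusted p = 0.812, exact permutation p = 0.0571). Without scopolamine 2, whose level stood far above the others, the fold change was lowest and the edgeR p was no longer under 0.05, as also without sham 3 or sham 4 and with the ID letter (0.62) or RNA input (0.69) as a covariate. The other chains had log2 fold changes of 0.28 (Ifngr2), -0.15 (Ifnar1), -0.44 (Ifnar2), 0.45 (Ifnlr1) and -0.25 (Il10rb), with adjusted p from 0.827 to 0.962 in edgeR. Their leave-one-out ranges were 0.13 to 0.56 (Ifngr2), -0.38 to 0.028 (Ifnar1), -0.57 to -0.31 (Ifnar2), 0.085 to 0.66 (Ifnlr1) and -0.39 to -0.13 (Il10rb). The upper end for Ifngr2, without sham 2, had an edgeR unadjusted p under 0.05, and RNA input as a covariate took Ifngr2 to 0.06 and Ifnar2 to -0.10. Ifnlr1, the chain specific to interferon lambda, was the least abundant per length at 1.58 CPM per kb, and its partner Il10rb, which interleukin 10 family receptors share, the most abundant at 49.4.

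In the remaining lists no gene had an edgeR adjusted p under 0.1. Of 9 negative regulators 7 were negative (median -0.10, 0 with an unadjusted p under 0.05). The smallest p belonged to Socs3 (unadjusted 0.0874), which had 103, 119, 98 and 231 counts with scopolamine and 1, 195, 3 and 8 counts in sham. In CPM sham 2 was just below scopolamine 1 and the other sham libraries were near 0. The groups thus lay apart in Socs3, alone of the 9, beside 1.7% of all genes on the higher side (log2 fold change 2.48, standard error 1.32, leave-one-out range 2.08 to 5.86, exact permutation p = 0.0286). The highest value came without sham 2, and limma-voom gave 4.48 and the ID letter as a covariate 4.54, all with an unadjusted p under 0.05. RNA input as a covariate gave 1.52, with an unadjusted p above it. Of 12 tested genes of nucleic acid sensing upstream of interferon, 8 were positive (median 0.28, 0 at an unadjusted p under 0.05). The smallest p was that of Myd88 (log2 fold change 0.60, leave-one-out range 0.39 to 0.83, edgeR adjusted p = 0.812), which was 0.23 with RNA input as a covariate and 0.20 without the lower-input libraries.

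Of 72 further genes stimulated by type I and III interferon, 58 were tested, with 26 positive and 32 negative and a median of -0.026. At an unadjusted p under 0.05, 3 were higher, Ifit1bl1 and Slfn2 among them, and 2 lower (Adar and Tor3a), beside 3.33% and 2.66% of all genes. In 1 gene the groups lay apart on the higher side and in 1 on the lower side, beside 1.7% and 2.23% of all genes, so such genes are few and near the shares of the background. The first was Slfn9, a member of the schlafen family, at 4.71, 9.03, 4.43 and 7.19 CPM with scopolamine and 4.04, 3.65, 1.59 and 2.57 CPM in sham. All scopolamine libraries lay above all sham libraries (log2 fold change 1.12, standard error 0.61, edgeR adjusted p = 0.815, exact permutation p = 0.0286). The second gene, Adar, an RNA editing enzyme, was measured at 32.0, 35.2, 21.8 and 29.8 CPM with scopolamine and 37.9, 48.7, 60.6 and 45.6 CPM in sham. Every sham library exceeded every scopolamine library (log2 fold change -0.67, standard error 0.23, leave-one-out range -0.77 to -0.54, edgeR adjusted p = 0.812), and the exact permutation p of 0.0286 is the smallest the design can give. Of 27 genes induced chiefly by interferon gamma, 21 were tested, with 8 positive and a median of -0.17, and 2 were higher and 0 lower at an edgeR unadjusted p under 0.05, beside 3.33% and 2.66% of all genes. Ido1 had the smallest p (unadjusted 0.0136), with 908, 13, 3 and 61 counts with scopolamine and 4, 49, 9 and 10 counts in sham, and scopolamine 1 alone stood far above the rest. Of 16 tested genes of MHC class I presentation, 8 were positive and 8 negative (median -0.013). Tap2, a subunit of the peptide transporter, was measured at 47.3, 54.3, 50.3 and 52.3 CPM with scopolamine and 33.97, 43.3, 33.9 and 40.0 CPM in sham. Its groups did not overlap (log2 fold change 0.46, standard error 0.18, leave-one-out range 0.41 to 0.54, edgeR adjusted p = 0.812, exact permutation p = 0.0286), and the Benjamini-Hochberg adjusted p was 0.0861 in DESeq2. Tap2 had the smallest edgeR p of the 16 and was the only one apart, beside 1.7% of all genes on the higher side. Tap2 was at 0.33 with RNA input as a covariate and at 0.31 without the lower-input libraries, both with an edgeR unadjusted p above 0.05. That p was also above 0.05 without a filter and without scopolamine 2, scopolamine 4, sham 1 or sham 3.

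The promoters of the genes were searched for the motifs through which interferon acts. RefSeq promoters of GRCm38.p6, from 250 bases before to 50 bases after each start, were given for 24 of the 34 genes (none for Ifi27, Oas2, Usp18, Mx1, Mx2, Rtp4, Dhx58, Zbp1, Parp9 and Parp14). The core of the ISRE, TTTC and again TTTC with any 2 bases between, searched on both strands, occurred in 11 of the 24 genes (45.8%), against 1079 of 27025 genes with a promoter (3.99%). The core of the GAS, TTCNNNGAA, which reads the same on both strands, occurred in 7 of 24 (29.2%), against 9.55% of all genes, and Bst2 and Oas1a held both cores. A match describes the sequence and does not show binding. The 11 windows below, 1 for each gene with an ISRE core, show the core and the bases around it in genes whose measured values differed widely. The search fixed all bases of the core but the 2 in its middle, so the likeness of the cores follows from the search. They are written 5′ to 3′ in the direction of the gene on GRCm38.p6, with the core in capitals, and it reads GAAA and GAAA around any 2 bases where the match is on the opposite strand. Where a promoter held several matches, some of them overlapping, the window shows the one nearest the start.
Isg15: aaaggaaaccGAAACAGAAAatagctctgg
Ifit1: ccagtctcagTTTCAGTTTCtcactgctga
Ifit3: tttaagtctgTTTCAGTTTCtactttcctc
Oas1a: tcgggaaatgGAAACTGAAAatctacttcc
Oas3: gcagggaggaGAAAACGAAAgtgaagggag
Rsad2: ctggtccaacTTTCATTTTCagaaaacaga
Stat2: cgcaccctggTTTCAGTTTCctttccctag
Gbp2: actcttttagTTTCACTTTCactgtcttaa
Bst2: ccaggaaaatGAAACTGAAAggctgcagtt
Ddx58: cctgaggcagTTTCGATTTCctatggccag
Ifih1: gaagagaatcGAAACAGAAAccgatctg

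These windows lie at chr4:156200865-156200894 (minus strand) for Isg15, chr19:34640794-34640823 (plus) for Ifit1, chr19:34583397-34583426 (plus) for Ifit3 and chr5:120907520-120907549 (minus) for Oas1a. Those of Oas3 and Rsad2 lie at chr5:120777715-120777744 and chr12:26456553-26456582, both on the minus strand, and those of Stat2 and Gbp2 at chr10:128270266-128270295 and chr3:142620594-142620623, both on the plus strand. The windows of Bst2, Ddx58 and Ifih1, all on the minus strand, lie at chr8:71537577-71537606, chr4:40239804-40239833 and chr2:62646206-62646233. In Ddx58 and Ifih1 the core lies after the annotated start, and in the other 9 genes before it. Isg15 held 3 matches to the core, beginning 78, 72 and 66 bases before the start, and neighbouring ones overlap. Bst2 (130 and 124 bases before) and Oas1a (20 and 14) held 2 each, which also overlap. Such overlapping matches are not separate copies. Ifit1 (104 and 85) and Ifit3 (156 and 122) held 2 separate matches each. A match to the core stood before Oas1a, at 142 CPM per kb, and before Gbp2, at 0.174 CPM per kb. Of the 10 tested genes with the core, 4 had positive and 6 negative fold changes (median -0.13), and of the 13 without it in the window, 3 were positive and 10 negative (median -0.17). The 7 genes with a GAS core had 3 positive and 4 negative fold changes (median -0.023), and the 8 genes with neither core had negative ones (median -0.37), of which Irf9 and Psmb9 were near 0 and none passed the threshold.

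Many of the genes lie next to one another in the genome. Oas2, Oas3 and Oas1a share a cluster at chr5:120730333-120907521, Oasl2 and Oasl1 one at chr5:114896936-114937915, and Ifit2, Ifit3 and Ifit1 one at chr19:34550694-34650009 (GRCm38). Psmb9 and Psmb8 lie 9956 bases apart in the MHC region at chr17:34181987-34201454, and Rsad2 and Cmpk2 lie 12751 bases apart at chr12:26442746-26479837. Levels differed widely within the OAS and IFIT clusters. In the OAS cluster the mean levels were 142 (Oas1a), 9.08 (Oas2) and 1.62 CPM per kb (Oas3), and in the IFIT cluster they were 7.70 (Ifit1), 0.586 (Ifit3) and 0.346 CPM per kb (Ifit2). The levels of the neighbouring pairs were 27.0 (Oasl1) and 18.3 (Oasl2), 60.5 (Psmb8) and 32.7 (Psmb9), 2.88 (Rsad2) and 6.07 (Cmpk2), 7.80 (Parp9) and 2.45 (Parp14), and 0.937 (Mx1) and 0.159 CPM per kb (Mx2). Psmb8 overlaps Gm20496, Psmb9 overlaps Tap1, Irf7 overlaps Phrf1, Parp9 overlaps Dtx3l and Ifi35 overlaps Gm11626, each on the opposite strand. Irf9 overlaps Rnf31, Irf8 overlaps Gm20388, Rtp4 overlaps Gm45338 and Parp14 overlaps Gm49730 on the same strand. Irf8 shares no 31-base words with another gene. With the partner named, the share on either strand was 12.96% for Psmb8, 12.83% for Ifi35, 12.53% for Rtp4 and 8.54% for Parp9. It was 4.79% for Psmb9, 1.69% for Irf9, 0.87% for Parp14 and 0.36% for Irf7. Whether the counting used strand is not given in the sources used here, so reads from these shared words may be divided within such pairs.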

How the data were processed

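RNA of 8 libraries of sorted tuft cells, 4 from scopolamine mice and 4 from sham mice, had been amplified and sequenced by the study. The submitters' processing notes name bcl2fastq 2.20, kallisto 0.44.0 and GRCm38. The authors assigned reads to transcripts with kallisto, summed them per gene with tximport and deposited estimated counts, without normalization. The values were whole numbers, and rounding changed 0 of them. The annotation release is not given in the sources used here.

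Groups were compared with edgeR 4.0.16 in R 4.3.3 (TMM scaling, filterByExpr, then the quasi-likelihood test), and a gene was called where the p adjusted over all 12849 genes tested by Benjamini-Hochberg was under 0.1. Standard errors were taken from the fold change and its F statistic. Single genes were also compared by exact permutation over all 70 assignments of log2 CPM (prior count 2). DESeq2 1.42.0, limma-voom (limma 3.58.1), other scalings, filters and covariates, and each replicate left out were alternatives. The code was tested on simulated data.

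Exon lengths and coordinates came from GENCODE release M21 on GRCm38, where 34887 of 35199 symbols were found, and promoters from RefSeq. RNA input class was taken from the study's library table. Full values are given for the 6 genes highest per length, the 4 tested genes with the smallest p in each direction, any of the 34 whose groups do not overlap, and Irf7, Irf9, Stat2, Isg15 and Ifit1. Values are also given for receptor chains, ligands above 3 counts and the gene with the smallest p in each list of pathway genes described. Other genes named were chosen after their values were seen, as were the sums of Oas1a with Oas1g and of Ifit3 with Ifit3b. The genes and lists were chosen with earlier results of these data known.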

Additional observations from a re-analysis of the deposited data

Results flagged for a closer look

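Within groups of 4 libraries, log2 CPM (prior count 2) of the 34 genes, their mean and 12 further named genes was searched for a library far from the other 3, and 3 gene values stood apart among 94 groups. Chance alone gives about 1 in 20 groups, so these few are fewer than chance gives.

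Ifit2 in sham 2 was at 1.53 log2 CPM (116 counts), whereas the other sham libraries lay between -3.76 and -2.88, with 0 to 2 counts. Rsad2 in sham 3 was at 0.74 log2 CPM (64 counts), below the other sham libraries at 3.83 to 4.21. Gbp2 in scopolamine 4 was at 1.82 log2 CPM (74 counts), whereas the other scopolamine libraries lay between -3.76 and -3.02, with 0 or 1 count. Sham 3 is 1 of the 2 libraries of lower RNA input, and scopolamine 4 held the highest sum of goblet and Paneth cell markers. What part these had in the values was not tested.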

How the results depend on the processing

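With 0 genes past an adjusted p under 0.1 in edgeR (428 higher and 342 lower at an unadjusted p under 0.05), the number was 190 with DESeq2, 5 with RNA input class as a covariate and 9 without the libraries of lower input. It ran from 0 to 2 with each replicate left out, and limma-voom and the other settings gave 0. Among the 34 genes the number stayed at 0 under all of these settings. At an unadjusted p under 0.05, 1 of the 32 tested genes was picked. This number was 2 with DESeq2, 3 with limma-voom, 3 without a filter (Gbp2 among them), 2 with at least 10 counts in every library, 4 with RNA input as a covariate and 4 without the lower-input libraries. Leaving out each replicate gave 0 (without scopolamine 2 or sham 4) to 5 (without scopolamine 4). Beside the 5 stood 276 higher and 285 lower of all 13408 genes in that fit. The fits with 0 had 214 higher and 228 lower of 13270 (without scopolamine 2) and 362 and 250 of 13207 (without sham 4). Over all genes the numbers higher and lower at this p were 1208 and 623 of 21805 without a filter, 439 and 295 of 10160 with at least 10 counts, 546 and 247 of 12849 with RNA input and 837 and 360 of 13869 without the lower-input libraries. The cause was not tested.

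The median log2 fold change of the genes stayed negative, from -0.37 to -0.014, and DESeq2 moved the median of all its genes to 0.084. The difference in mean log2 CPM ran from -0.22 without the lower-input libraries to 0.20 without scopolamine 2, within the pooled SD of 0.319, on both sides of 0.

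Of 25 single genes, 22 kept the sign of their fold change under every setting in which they were fitted. Socs3 and Ido1 were not fitted with at least 10 counts in every library. Without scopolamine 4, Irf8 went from 0.80 to 2.1e-05 and Parp9 from 0.31 to 0.053. Irf9 turned to 0.0041 with library size only and 0.19 with the ID letter, and to between 0.052 and 0.15 without scopolamine 2, sham 2 or sham 4 (lowest with a replicate left out -0.17). Its lowest values were -0.37 without the lower-input libraries and -0.35 with RNA input as a covariate. Ifit1 turned to -0.095 with limma-voom, and to between -0.42 and -0.096 without scopolamine 3, scopolamine 4 or sham 4 (highest 0.36). Ifnar1 turned to 0.028 without sham 3 (lowest -0.38). DESeq2 brought Tap2 past the threshold (0.48, adjusted p = 0.0861).

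Depth, input and the ID letter were unbalanced between the groups. With 4 mice a group, the 95% interval of each of the 32 tested genes described reached past -0.5 or 0.5 on the log2 scale, so the test does not show that changes of that size were absent.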
